A study of Schizosaccharomyces pombe with 24 samples.

Results

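The heat shock protein and chaperone genes described here are 10 genes of fission yeast (Schizosaccharomyces pombe), taken by systematic name from the 6877 genes of the deposited count tables: hsp16 (SPBC3E7.02c), ssa1 (SPAC13G7.02c), ssa2 (SPCC1739.13), hsp104 (SPBC16D10.08c), hsp90 (SPAC926.04c), hsp9 (SPAP8A3.04c), hsp78 (SPBC4F6.17c), hsp20 (SPCC338.06c), mas5 (SPBC1734.11) and hsf1 (SPAC2E12.02). All 10 passed the filter on low counts, which kept 5664 genes, and none had fewer than 16 reads in any library. RNA was measured by directional sequencing after depletion of ribosomal RNA in a wild type, labelled wt (975 h+), and in a strain labelled clr4D with a NatMX6 cassette in the same 975 h+ background. That label names a deletion of clr4, the gene of the methyltransferase that marks heterochromatin at lysine 9 of histone H3. Cultures of both strains grew at 32 °C in EMM with added adenine, histidine, leucine, lysine and uracil. They were then washed and kept in EMM without nitrogen for 1, 2, 4, 10 or 24 h, and the 0 h cultures are the starting point. Each of the 12 groups has 2 replicates, which the series text calls biological.

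Heat shock proteins are chaperones that bind unfolded proteins, help them fold and, in some cases, pull aggregates apart. Hsp70 proteins work with Hsp40 partners on a broad range of proteins, Hsp90 finishes the folding of kinases and other signalling proteins, and small heat shock proteins hold unfolded proteins until other chaperones take over. Many of these genes are switched on by the transcription factor Hsf1, which binds heat shock elements made of repeated GAA and TTC units, and in fission yeast others follow the stress-activated kinase Sty1 and its transcription factor Atf1.

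Upstream sequences are shown only for the genes with a searched form of the heat shock element within 100 bases of the start. The count files carry no coordinates, so each gene was located by its systematic name in the RefSeq annotation of the ASM294v3 assembly and its sequence was read from the genome of that same assembly. The counts themselves were made on ASM294v2, and no position was carried between the builds. Each sequence below is the 100 bases that end just before the annotated gene start, 5′ to 3′ on the gene's own strand, and capitals mark the heat shock element. The stretches lie at II:2660993-2661092 on the minus strand for hsp16, I:2297965-2298064 on the minus strand for ssa1, III:2056943-2057042 on the plus strand for ssa2, I:3891140-3891239 on the minus strand for hsp90 and III:1365018-1365117 on the plus strand for hsp20.
hsp16: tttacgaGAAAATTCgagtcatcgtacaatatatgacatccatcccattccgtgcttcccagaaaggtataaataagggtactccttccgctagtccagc
ssa1: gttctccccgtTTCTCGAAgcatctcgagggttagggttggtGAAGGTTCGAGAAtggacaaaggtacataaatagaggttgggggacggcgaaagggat
ssa2: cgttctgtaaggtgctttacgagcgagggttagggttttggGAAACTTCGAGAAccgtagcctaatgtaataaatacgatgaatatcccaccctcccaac
hsp90: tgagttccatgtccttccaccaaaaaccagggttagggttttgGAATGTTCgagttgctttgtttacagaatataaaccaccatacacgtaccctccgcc
hsp20: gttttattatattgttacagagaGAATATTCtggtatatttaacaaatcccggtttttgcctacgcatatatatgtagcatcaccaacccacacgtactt

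The element was searched on both strands as GAANNTTC and as TTCNNGAA, which can overlap, in the 250 bases before and the 50 bases after each annotated start. It was found in 6 of the 10 genes, hsp16, ssa1, ssa2, hsp90, hsp20 and mas5, and in 19.9% of 5111 promoters of coding genes. In mas5 it lies 224 to 217 bases before the start, outside the stretch of 100 bases. A longer form, with 3 alternating units in a row, was present in ssa1 and ssa2, and in 0.47% of all promoters. The Atf1 element TGACGT was found in ssa2 alone among the 10 genes (5.91% of all promoters), and the stress element CCCCT in hsp9 and mas5 (10.4%). No element of these kinds was found in the windows of hsp104, hsp78 and hsf1, which says nothing of elements elsewhere or of other forms within the windows. The 3 genes ssa1, ssa2 and hsp90 also share the run AGGGTTAGGGTT, which starts 73, 75 and 72 bases before their starts and occurs in 0.391% of all promoters. That run was noticed in the sequences and then counted, and all these matches are descriptions of letters, not of binding.

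Levels are given in CPM, the reads of a gene per 1000000 gene reads of its library, after scaling with the trimmed mean of M values (TMM). CPM is a relative measure: a gene can fall in CPM because others rose. Gene reads per library ranged from 637723 to 4427020 with a median of 1436782. Differences are on the log2 scale with standard errors (SE) from edgeR's quasi-likelihood fit, and a gene is called where the Benjamini-Hochberg adjusted p over all 5664 genes is under 0.05. The clr4 feature had reads in all 24 libraries, although the label names a deletion of that gene. Its means were 95.5 to 130.5 CPM in wt and 337, 385, 132, 119, 129 and 188 CPM at 0, 1, 2, 4, 10 and 24 h in the libraries labelled clr4D. It was called higher there at 0 h (log2 difference 1.36), 1 h (1.89) and 24 h (0.98). The 2 wt libraries of 0 h differed from each other, at 89.3 and 171.6 CPM of clr4. They held 2 and 28 reads of tlh2, a subtelomeric helicase gene, and 2 and 23 of SPNCRNA.231. Every strain difference at 0 h and every wt change from 0 h rests in part on these 2 libraries. The group means of tlh2 were 103.5 to 179.1 CPM in the libraries labelled clr4D and 0 to 17.7 CPM in wt. The source of the clr4 reads and the extent of the deletion were not analysed here. The strain is called clr4D-labelled below. The second wt library of 4 h stands apart from its partner, with a correlation of 0.9595 between their log2 CPM, and a summed level of 6 genes of growing cells of 43330 against 13980 CPM. In these bulk samples fewer cells of a type and less RNA per cell cannot be told apart.

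After nitrogen was removed, the 10 genes went in opposite directions. Within 1 h in wt, hsf1, hsp9, hsp104 and hsp16 rose, and ssa2, hsp90, mas5, hsp78 and ssa1 fell. That is 4 genes called higher and 5 called lower, in a comparison in which 26.5% of all genes were called higher, 26.9% lower and 53.4% in all. The median difference of the 10 genes was -0.33, beside 0.01 over all genes. The clr4D-labelled cells had 8 calls at 1 h with a background of 52.2%, and the same genes rose and fell except that hsp16 was not called (0.52 ± 0.26 SE, adjusted p = 0.11 in edgeR's quasi-likelihood test). Across the later times 8, 6, 5 and 7 genes were called against 0 h in wt at 2, 4, 10 and 24 h, with backgrounds of 54%, 51%, 50.4% and 52.3%. In clr4D-labelled cells the counts were 7, 8, 9 and 7, with backgrounds of 52.3%, 49.2%, 54.6% and 54.7%. Over the whole course 9 of the 10 genes were called in each strain, where 69.2% of all genes were called in wt and 72.2% in clr4D-labelled cells, and the exception was hsp20 in both (adjusted p = 0.319 and 0.0765). With so many genes called, these counts say little about chaperones, and the directions and sizes below are what separates the members.

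**Figure D1:**
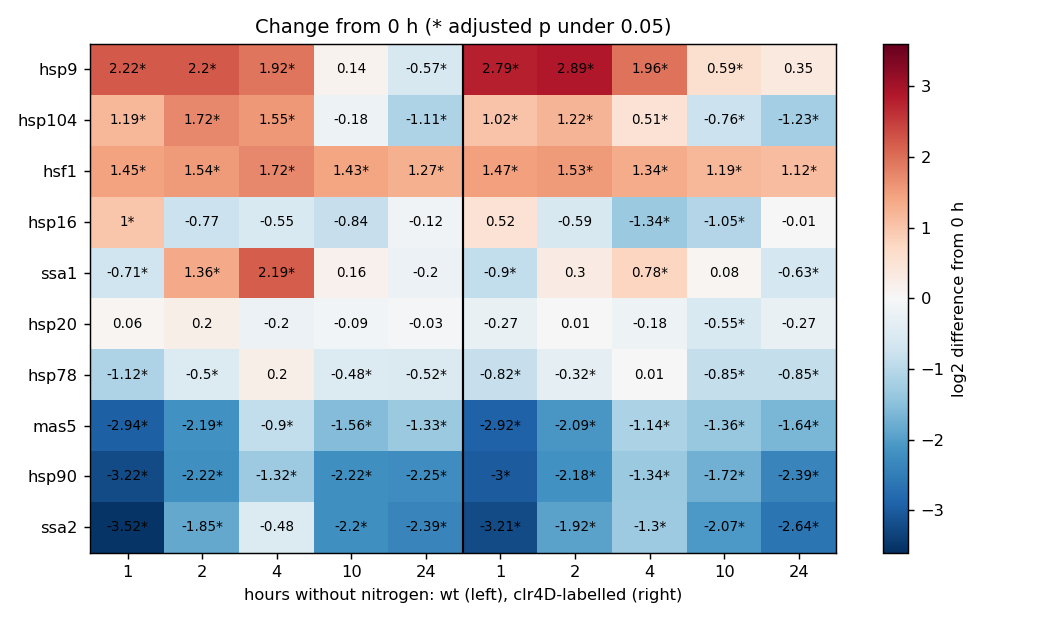
Log2 difference from 0 h of each gene at 1, 2, 4, 10 and 24 h without nitrogen in wt (left) and in clr4D-labelled libraries (right), with red for higher and blue for lower and an asterisk where the adjusted p is under 0.05. The genes hsp9, hsp104 and hsf1 are red at 1, 2 and 4 h, while ssa2, hsp90 and mas5 are blue at every time.

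The transcription factor gene hsf1, whose protein drives heat-induced transcription of chaperone genes, rose and stayed high. Its wt libraries had 155 and 180 CPM at 0 h, 428 and 490 at 1 h, 492 and 477 at 2 h, 462 and 657 at 4 h, 447 and 454 at 10 h and 388 and 418 at 24 h. The clr4D-labelled libraries held 156 and 181 CPM at 0 h, 426 and 498 at 1 h, 422 and 540.4 at 2 h, 372 and 469.5 at 4 h, 351 and 408 at 10 h and 312 and 411 at 24 h. Every later library of either strain was above every library of 0 h. The rise at 1 h was 1.45 ± 0.19 SE in wt and 1.47 ± 0.20 SE in clr4D-labelled cells. At 24 h the level was still higher by 1.27 ± 0.19 SE and 1.12 ± 0.19 SE (adjusted p of 6.37e-06 and 3.48e-05 from edgeR's quasi-likelihood test). Among the 10 genes it was the member called higher than 0 h at all 5 later times in both strains. A coding gene and non-coding RNAs overlap it on the opposite strand in ASM294v3. With the strand setting of the counting unknown here, their reads may be among those of hsf1. Overlaps with other annotated genes also leave some uncertainty for ssa2 (ppe1, same strand), hsp9 (SPNCRNA.1071, same strand), ssa1 (SPNCRNA.3030, over 1934 bases, and SPNCRNA.811, over 145 bases, both on the opposite strand) and mas5 (alg12, opposite strand). Other non-coding RNAs of ASM294v3 lie opposite ssa2, hsp9, mas5, hsp104 and hsp78, while hsp16, hsp90 and hsp20 have no overlap there.

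The abundant folding machinery fell sharply in the first hour. The gene ssa2, which encodes a cytosolic Hsp70, had 9031 and 7345 CPM in wt at 0 h, 629 and 806 at 1 h, 2165 and 2371 at 2 h, 3256 and 8496 at 4 h, 1847 and 1726 at 10 h and 1439 and 1694 at 24 h. In clr4D-labelled cells it had 6316 and 9702, 744 and 987, 2071 and 2153, 3311 and 3178, 1793 and 2026, and 1345 and 1225 CPM at the same times. Both strains had their lowest level at 1 h, without overlap with 0 h, and their libraries of 4 h lay above those of 2 h and 10 h. The drop at 1 h was -3.52 ± 0.33 SE in wt and -3.21 ± 0.33 SE in clr4D-labelled cells, and the means differed 11.4 times and 9.25 times. At 4 h in wt the difference from 0 h was -0.48 ± 0.30 SE and was not called, and without the second wt library of 4 h it was -1.33 with an adjusted p of 3.27e-05 by edgeR's quasi-likelihood test.

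The gene hsp90, which encodes the cytosolic Hsp90, had a similar course, with 7481 and 5944 CPM in wt at 0 h, 682 and 759.8 at 1 h, 1450 and 1425 at 2 h, 1979 and 3419 at 4 h, 1447 and 1444 at 10 h and 1352 and 1468 at 24 h. The clr4D-labelled libraries had 6036 and 8114 CPM at 0 h, 836 and 932 at 1 h, 1575 and 1544 at 2 h, 3007 and 2568 at 4 h, 2268 and 2009 at 10 h and 1409 and 1282 at 24 h. All later libraries lay below all libraries of 0 h. Its log2 difference from 0 h was -3.22 ± 0.25 SE at 1 h, -1.32 ± 0.23 SE at 4 h and -2.25 ± 0.24 SE at 24 h in wt, and it was called at all 5 later times in both strains. The Hsp40 gene mas5, whose product delivers substrates to Hsp70, went from 843 and 863 CPM to 100.2 and 128 CPM in the first hour in wt, and from 646 and 1228 to 121 and 123 CPM in clr4D-labelled cells. It also recovered in part, to 311 and 637 CPM at 4 h in wt and to 372 and 467 CPM in clr4D-labelled cells, and was called lower than 0 h at every later time in both strains. The mas5 call at 4 h did not hold in wt when wt 4 h replicate 1 was left out (-0.42, adjusted p = 0.256). In the clr4D-labelled strain it did not hold when 0 h replicate 2 was left out (-0.61, adjusted p = 0.0724), both in edgeR's quasi-likelihood test. In the step from 2 h to 4 h, 5 members were called higher in wt (ssa2, mas5, hsp90, ssa1 and hsp78), where 7.73% of all genes were, and 1 of them (hsp78) without wt 4 h replicate 2. In clr4D-labelled cells hsp90 and mas5 were called higher (3.41% of all genes) and hsp104 and hsp9 lower (5.84%), and 0 to 2 members were called in that step when single libraries were left out. Across the 12 group means the log2 levels of ssa2 and hsp90 had a Pearson correlation of 0.96, and those of hsp90 and mas5 of 0.95, a description over points that share time and scaling.

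The other Hsp70 gene, ssa1, took a different course. Its wt libraries had 149 and 206 CPM at 0 h, 101 and 118 at 1 h, 484 and 424 at 2 h, 599.6 and 1041 at 4 h, 192 and 206 at 10 h and 163 and 145 at 24 h. The clr4D-labelled libraries had 399.8 and 491 CPM at 0 h, 229 and 245 at 1 h, 546 and 539.7 at 2 h, 731 and 785 at 4 h, 485 and 445 at 10 h and 322 and 248 at 24 h. It was lowest at 1 h in both strains and highest at 4 h. Its difference from 0 h at 4 h was 2.19 ± 0.21 SE in wt and 0.78 ± 0.20 SE in clr4D-labelled cells, the latter not called without clr4D 0 h replicate 1 (0.60, adjusted p = 0.0664 in edgeR's quasi-likelihood test). The step from 1 h to 2 h was 2.07 ± 0.22 SE in wt. In that comparison 4 of the 10 members were called higher, ssa1, ssa2, hsp90 and hsp78, where 0.724% of all genes were. In the clr4D-labelled strain 3 members rose in that step, ssa1 (1.19 ± 0.21 SE), ssa2 and hsp78, where 1.08% of all genes were called higher. The ssa1 steps kept their calls whichever library was left out. In wt the hsp90 call was lost whichever of the 4 libraries was left out (values from 0.94 to 1.08). The wt call of ssa2 was lost without wt 1 h replicate 1 (1.51). That of hsp78 was lost without wt 1 h replicate 1 (0.66) and without wt 2 h replicate 2 (0.49). In clr4D-labelled cells the ssa2 and hsp78 calls were lost whichever of the 4 libraries was left out (adjusted p of 0.0552 to 0.174 for ssa2 and 0.0827 to 0.239 for hsp78), in the same test in edgeR. The 1 h dip in wt (-0.71 ± 0.22 SE, adjusted p = 0.00949) was not called when wt 0 h replicate 2 (-0.52, adjusted p = 0.112) or wt 1 h replicate 1 (-0.63, adjusted p = 0.0977) was left out, in edgeR's quasi-likelihood test. From 4 h to 10 h ssa1 fell by 2.02 in wt on the log2 scale, and 6 members were called lower, where 5.76% of all genes were. In clr4D-labelled cells 4 members fell in that step, where 3.64% of all genes did. There the ssa1 change of -0.70 was not called when any of the 4 libraries was left out (adjusted p from 0.0557 to 0.168 in edgeR's quasi-likelihood test).

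The disaggregase genes differed from each other. Hsp104 pulls proteins out of aggregates in the cytosol, and its gene hsp104 was at 357 and 304 CPM in wt at 0 h, 768 and 741 at 1 h, 1135 and 1050 at 2 h, 827 and 1129 at 4 h, 283 and 301 at 10 h and 179 and 128 at 24 h. In clr4D-labelled cells it was at 451 and 510.4, 998 and 943, 994 and 1235, 653 and 714, 291 and 276, and 231 and 177 CPM. Its rise at 1 h was 1.19 ± 0.19 SE in wt and 1.02 ± 0.19 SE in clr4D-labelled cells. It was highest at 2 h by its means and ended below its starting level, by -1.11 ± 0.19 SE at 24 h in wt and -1.23 ± 0.19 SE in clr4D-labelled cells, with no overlap between 0 h and 24 h libraries in either strain. Its mitochondrial relative hsp78 moved within a narrower range, from a lowest mean of 121.7 CPM at 1 h to 309.8 CPM at 4 h in wt, and from 170.6 CPM at 10 h to 310.1 CPM at 0 h in clr4D-labelled cells. It was called lower at 1 h in both (-1.12 ± 0.14 SE and -0.82 ± 0.14 SE). At 4 h it differed from 0 h by 0.20 ± 0.13 SE and 0.01 ± 0.13 SE, neither of which was called. Its call in wt at 2, 10 and 24 h did not hold with library totals alone as the scaling (-0.21, -0.02 and -0.03). In clr4D-labelled cells it was called lower at 2 h (-0.32 ± 0.13 SE), 10 h (-0.85 ± 0.13 SE) and 24 h (-0.85 ± 0.13 SE). Those calls did not hold with that scaling either (-0.01, -0.26 and -0.23). The call at 2 h held in 4 of 13 alternative settings, and those at 10 h and 24 h in 12 of 13 each.

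Of the small proteins, hsp9 rose most against 0 h at 1 h. It encodes a small stress-induced protein related to Hsp12 of Saccharomyces cerevisiae. Its wt libraries had 1385 and 1140 CPM at 0 h, 5850 and 5896 at 1 h, 6128 and 5517 at 2 h, 4494 and 5104 at 4 h, 1483 and 1302 at 10 h and 933 and 767 at 24 h. The clr4D-labelled libraries had 864 and 872 CPM at 0 h, 6675 and 5368 at 1 h, 5798 and 7087 at 2 h, 2910 and 3834 at 4 h, 1389 and 1228 at 10 h and 1259 and 955 at 24 h. The libraries of 1, 2 and 4 h lay above those of 0 h in both strains, and in clr4D-labelled cells those of 4 h were already below those of 1 h and 2 h. By 10 h the difference from 0 h was 0.14 ± 0.22 SE in wt, not called, and 0.59 ± 0.23 SE in clr4D-labelled cells. The latter was called higher (adjusted p = 0.0306 in edgeR's quasi-likelihood test) and held in 9 of 13 alternative settings. It was lost whichever of the 4 libraries compared was left out. The log2 rise at 1 h was 2.22 ± 0.23 SE in wt and 2.79 ± 0.24 SE in clr4D-labelled cells, and the difference between these rises was 0.58 ± 0.32 SE and was not called (adjusted p = 1 in edgeR's quasi-likelihood test). Its fall below 0 h at 24 h in wt (-0.57 ± 0.23 SE, adjusted p = 0.0366) was not called when wt 0 h replicate 1 or wt 24 h replicate 2 was left out (-0.42 and -0.44), nor with library totals alone as the scaling (-0.07).

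The small heat shock protein gene hsp20 had the flattest course, from 36.1 to 62.6 CPM over the wt libraries and from 38.5 to 68.3 CPM over the clr4D-labelled libraries. Its lowest and highest group means differed by a ratio of 1.43 in wt and 1.48 in clr4D-labelled cells. Only the 10 h difference in clr4D-labelled cells was called among its 10 comparisons with 0 h (-0.55 ± 0.19 SE, adjusted p = 0.0175), and it turned to 0.02 with library totals alone as the scaling. It was also not called when replicate 1 of either group was left out (-0.38 for 0 h and -0.45 for 10 h), or in DESeq2 (-0.48, adjusted p = 0.12). It holds a match to a searched form of the heat shock element within 100 bases of its start, as hsp16, ssa1, ssa2 and hsp90 do.

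The other small heat shock protein gene, hsp16, was low in wt, with 44.2 and 79.2 CPM at 0 h, 130.4 and 104 at 1 h, 40.6 and 30.9 at 2 h, 40.6 and 42.9 at 4 h, 38.9 and 23.2 at 10 h and 53.2 and 57.3 at 24 h. In clr4D-labelled cells it was at 328 and 308 CPM at 0 h, 554 and 362 at 1 h, 221 and 205 at 2 h, 128 and 125 at 4 h, 168 and 139 at 10 h and 408 and 228 at 24 h. At each time both clr4D-labelled libraries were above both wt libraries, by ratios of the means from 3.02 at 4 h to 5.97 at 2 h. Within the course it was highest at 1 h in both strains. The 1 h rise in wt was 1.00 ± 0.33 SE (adjusted p = 0.0166) and was not called when wt 0 h replicate 1 (0.56, adjusted p = 0.254) or wt 1 h replicate 1 (0.73, adjusted p = 0.228) was left out, in edgeR's quasi-likelihood test. The fall from 1 h to 2 h was called in both strains, at -1.78 ± 0.31 SE in wt and -1.11 ± 0.26 SE in clr4D-labelled cells. It did not hold without wt 1 h replicate 1 (-1.54, adjusted p = 0.182) or wt 2 h replicate 2 (-1.57, adjusted p = 0.0764), and in clr4D-labelled cells without 1 h replicate 1 (-0.75, adjusted p = 0.251) or either library of 2 h (-1.16 and -1.04). In clr4D-labelled cells hsp16 rose again from 10 h to 24 h, by 1.04 ± 0.26 SE (adjusted p = 0.0115). That call did not hold without 10 h replicate 1 (adjusted p = 0.0661), 10 h replicate 2 (adjusted p = 0.0917) or 24 h replicate 1 (0.58, adjusted p = 0.162). Against 0 h its level there was lower at 4 h (-1.34 ± 0.28 SE, adjusted p = 0.000779 in edgeR's quasi-likelihood test) and at 10 h (-1.05 ± 0.27 SE), the latter not called with library totals alone as the scaling (-0.47).

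**Figure D2:**
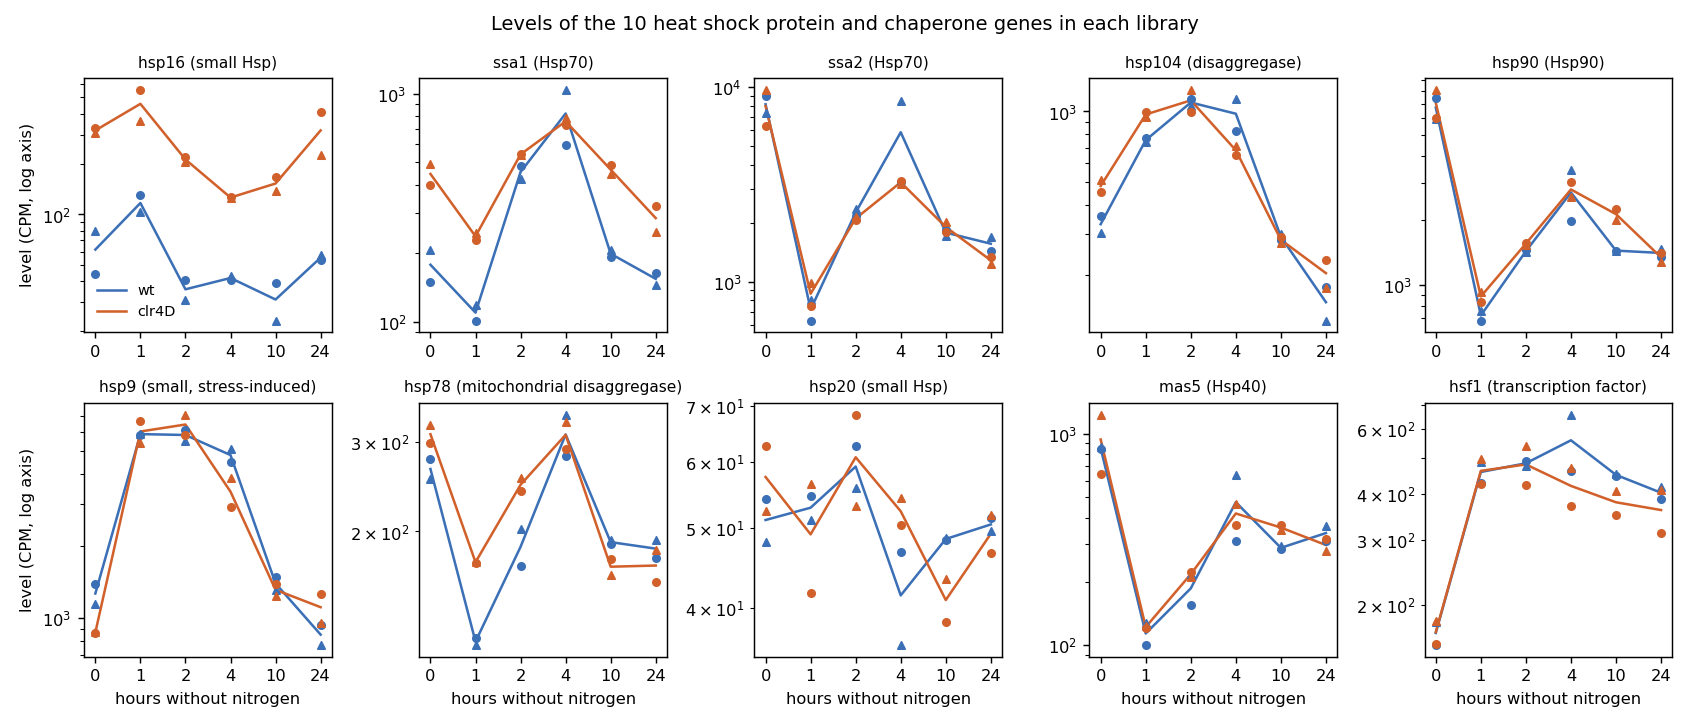
Level of each of the 10 genes in CPM (log axis, a separate range in each panel) against hours without nitrogen, for wt in blue and clr4D-labelled libraries in orange, with circles for replicate 1, triangles for replicate 2 and lines through the means of the 2 libraries. The orange points lie above the blue points at all 6 times for hsp16, and the second wt library of 4 h lies far above the first for ssa2 (8496 against 3256 CPM).

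The series compares the strains under nitrogen starvation, and among the 10 genes hsp16 and ssa1 carried the difference. At each of the 6 times hsp16 passed the test as higher in clr4D-labelled cells. The log2 difference was 2.41 ± 0.31 SE at 0 h (adjusted p = 0.00293), 1.92 ± 0.28 SE at 1 h (adjusted p = 0.000952) and 2.59 ± 0.30 SE at 2 h (adjusted p = 4.13e-05). It was 1.62 ± 0.33 SE at 4 h (adjusted p = 0.00378), 2.19 ± 0.32 SE at 10 h (adjusted p = 8.05e-05) and 2.52 ± 0.27 SE at 24 h (adjusted p = 7.05e-06), in edgeR's quasi-likelihood test. These values ranked 46, 51, 51, 133, 205 and 96 from the highest of 5664 genes. Averaged over the 6 times the difference was 2.21 ± 0.12 SE (adjusted p = 1.11e-09), with both clr4D-labelled libraries above both wt libraries in 6 of 6 times. The calls at 0 h and at 4 h each held in 13 of 14 alternative settings. They did not hold without wt 0 h replicate 1 (2.02) and without wt 4 h replicate 1 (1.56), and held without replicate 2 of those groups. The call at 24 h did not hold when only its 4 libraries were fitted (2.57, adjusted p = 0.0563 in edgeR's quasi-likelihood test).

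The gene ssa1 also passed, at 0 h (1.32 ± 0.21 SE, adjusted p = 0.0044), 1 h (1.14 ± 0.22 SE, adjusted p = 0.00752), 10 h (1.23 ± 0.20 SE, adjusted p = 7.03e-05) and 24 h (0.89 ± 0.20 SE, adjusted p = 0.00497). At 2 h and 4 h its differences were 0.26 ± 0.20 SE and -0.09 ± 0.20 SE, and neither was called. The libraries of the strains overlapped at 4 h and not at the other times. Left out singly, wt 0 h replicate 1 (1.10) and clr4D 0 h replicate 2 (1.18) each ended the 0 h call, with adjusted p of 0.276 and 0.0608 in edgeR's quasi-likelihood test. The same held at 1 h for wt replicate 1 (1.01) and clr4D replicate 2 (1.09), and at 24 h for wt replicate 2 (0.82) and clr4D replicate 1 (0.71). The mean over the 6 times was 0.79 ± 0.08 SE (adjusted p = 1.81e-07).

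Counted over the members, 2, 2, 1, 1, 2 and 2 of the 10 were called at 0, 1, 2, 4, 10 and 24 h, all of them higher in clr4D-labelled cells. The share of all genes called higher in these comparisons was 0.194%, 0.459%, 1.32%, 5.19%, 12% and 5.63%. On the mean of the 6 times 3 members were called higher, where 10.3% of all genes were. The third was hsp78 (0.15 ± 0.05 SE, adjusted p = 0.0455 in edgeR's quasi-likelihood test), whose call did not hold in most fits that left out a library. The median difference of the 10 genes ran from -0.10 at 4 h to 0.29 at 1 h, beside medians over all genes of -0.03 to 0.01. The 8 genes other than hsp16 and ssa1 lay between -0.85, for ssa2 at 4 h, and 0.56, for hsp90 at 10 h. None of them was called at any single time in the edgeR fit of all 24 libraries with TMM. The hsp90 value at 10 h (adjusted p = 0.0789 in edgeR's quasi-likelihood test) stayed uncalled in 8 of 13 alternative settings. It was called higher with library totals alone, upper quartile factors, only the groups compared, limma-voom and DESeq2. The ssa2 value at 4 h (adjusted p = 0.0605) depended on the wt libraries of 4 h: without replicate 1 of that group it was -1.39 (adjusted p = 2.2e-05), and both clr4D-labelled libraries were near the lower wt library.

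Whether the strains changed differently over time was tested directly. The course of ssa1 differed between the strains (adjusted p = 0.00549 in edgeR's quasi-likelihood F test over all times), where 6.87% of all genes were called, and it was the member called. Its change from 0 h to 4 h was smaller by 1.41 ± 0.29 SE in clr4D-labelled cells (log2 -1.41, adjusted p = 0.00914). That of hsp104 was smaller by 1.04 (log2 -1.04 ± 0.27 SE, adjusted p = 0.0461). These were the 2 members called in that comparison, where 1.73% of all genes were called. For the changes from 0 h to 1, 2, 10 and 24 h edgeR called 0 members, where 0%, 0.3%, 7.27% and 0.971% of all genes were called. At an unadjusted p under 0.05 there were 0, 2, 1 and 1 members, limma-voom called 0 and DESeq2 called 1, at 24 h. In the test of the course hsp16 had an adjusted p of 0.537 by edgeR's quasi-likelihood F test. Its strain difference changed from 0 h by -0.79 ± 0.46 SE to 4 h and by 0.11 ± 0.42 SE to 24 h. Leaving out single libraries left between 0 and 3 members called for the 0 h to 4 h change.

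Markers of other cell states moved with some of these comparisons, and their part in the results was not tested. The 6 listed M-type mating genes, all with reads in every group, summed to 132 to 230.4 CPM in wt at all times. In clr4D-labelled cells they summed to 174.5 and 185.9 CPM at 0 h, to 328 and 416 at 1 h, and to between 2577 and 10110 from 2 h on. The 7 listed genes of meiotic or sporulating cells summed to between 37.1 and 77 CPM in every wt library and in clr4D-labelled libraries up to 2 h. They reached 138.1 and 177.2 CPM at 4 h and 6962 to 14830 CPM at 10 h and 24 h in clr4D-labelled libraries, and mei3 was at 0 in wt at 0, 1 and 10 h. The 4 listed P-type genes summed to 134.5 to 964.3 CPM in wt and to 133.1 to 7114 CPM in clr4D-labelled libraries. The 6 genes of growing cells summed to 16800 and 18610 CPM in wt at 0 h and to 9850 and 10120 CPM at 1 h, when ssa2, hsp90 and mas5 fell. At 0 h the M-type sums did not overlap, at 132 and 146.2 CPM in wt and 174.5 and 185.9 CPM in clr4D-labelled cells. The sums of the P-type, meiotic and growing genes overlapped between the strains at that time. The strain differences of hsp16 and ssa1 at 0 h were 2.41 and 1.32, and whether cell state has a part in them was not tested.

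For the Hsp70 pair a ratio within each library can be given, which does not depend on the scaling. In wt at 0 h there were 60.7 and 35.6 ssa2 reads for each ssa1 read, and later between 4.48 and 11.7. In clr4D-labelled cells the ratio was 15.8 and 19.8 at 0 h and between 3.25 and 4.94 later. At every time both clr4D-labelled libraries had the lower ratio. Over their coding sequences in ASM294v3 the genes are 82.6% identical with a longest identical run of 56 bases. Reads placed at more than 1 position, 5.43% to 12.37% of each library, were not counted, so some may be missing from both genes. The 10 genes together held 1.41% to 1.54% of the gene reads in wt at 0 h and 1.39% to 1.56% in clr4D-labelled cells. Later they held 0.589% to 1.45% and 0.635% to 1.39%, with the highest values at 4 h.

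**Figure D3:**
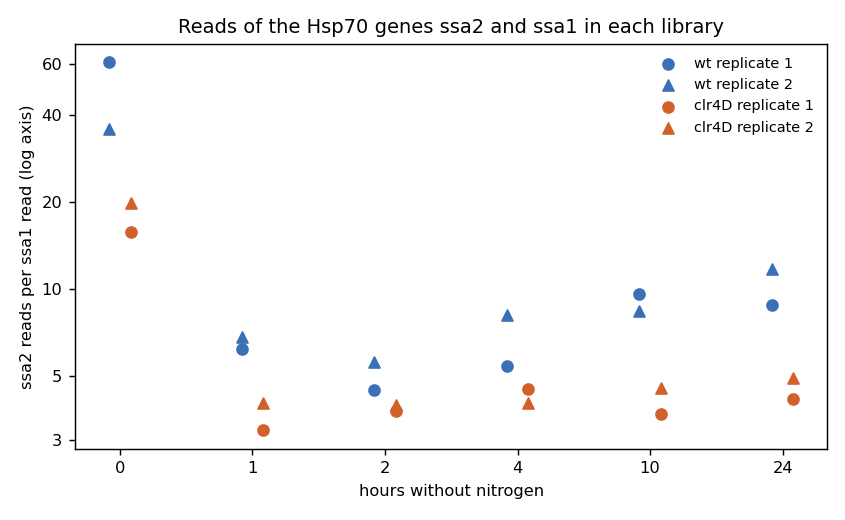
Reads of ssa2 for each read of ssa1 in each of the 24 libraries (log axis) against hours without nitrogen, with wt in blue, clr4D-labelled in orange, circles for replicate 1 and triangles for replicate 2. The wt libraries of 0 h lie highest at 35.6 and 60.7, and the orange points are below the blue points at each time.

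Per length of exon, levels can be compared between genes. At 0 h in wt the order of the mean CPM per kb was ssa2 (3580), hsp90 (2600), hsp9 (1750), mas5 (432), hsp104 (110), hsp78 (104), ssa1 (74.5), hsp16 (72.3), hsf1 (68.1) and hsp20 (50). Of the neighbours in that order, hsp104 with hsp78, ssa1 with hsp16, and hsp16 with hsf1 had overlapping libraries. At 1 h hsp9 came first at 8160 CPM per kb, far above ssa2 (313) and hsp90 (279), and hsp78 (47.9) and ssa1 (45.9) came last. The libraries of ssa2 and hsp90 overlapped, as did those of mas5 and hsp20 and those of hsp78 and ssa1. In clr4D-labelled cells hsp16 at 0 h (372 CPM per kb) overlapped with mas5 (475) and lay above ssa1 (187). At 1 h it came next after hsp9 (8360), at 536 CPM per kb, with overlap with ssa2 (378). At 24 h in wt hsp9 (1180), ssa2 (684) and hsp90 (546) led, and hsp104 (51.1) and hsp20 (49.4), which overlapped, came last.

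The 5 tested genes whose log2 level over the 12 group means was most like that of hsp16 were SPNCRNA.1546 (Pearson r = 0.888), SPNCRNA.232 (0.887), SPNCRNA.231 (0.879), tlh2 (0.869) and SPNCRNA.1258 (0.855). The gene tlh2 encodes a helicase of the subtelomeres, a family with near-identical copies whose reads may be split, and the other 4 are annotated as non-coding RNAs. SPNCRNA.232 went from 1.81 and 33.6 CPM in wt at 0 h to 0 to 4.79 CPM later, against 107 to 311 CPM in the clr4D-labelled libraries, and wt 0 h replicate 2 held 28 of the 30 reads of that group. Using the replicate 1 and replicate 2 libraries on their own, SPNCRNA.232, SPNCRNA.231 and tlh2 ranked between 1 and 4, whereas SPNCRNA.1546 ranked 30 and 40 and SPNCRNA.1258 ranked 29 and 20. SPNCRNA.1546 had 0 to 16 reads in a library and SPNCRNA.1258 had 0 to 35. The 12 means span both strains, so r takes in the difference between the strains as well as the course. Within wt the mean of hsp16 was highest at 1 h (117.1 CPM), while that of tlh2 went from 17.7 CPM at 0 h to 1.58 CPM at 1 h. The correlations of hsp16 with the other 9 members ran from -0.22 to 0.14.

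Other chaperone genes were counted from a list of 93 symbols in 7 groups, of which 73 matched. Since some are synonyms, they stand for 62 genes, all of them tested. In wt at 1 h, 7 of the 62 were called higher and 39 lower than at 0 h (26.5% and 26.9% of all genes), with a median of -0.80, beside 0.01 over all genes. With library totals alone as the scaling the split was 7 higher and 33 lower, without the share of all genes under that scaling beside it. All 8 subunits of CCT, the ring chaperonin that folds actin and tubulin, fell, by 1.09 to 1.51 on the log2 scale. Of the 12 Hsp90 partners 8 fell, with the largest fall for wis2, an Hsp90-binding cyclophilin (434 to 42.6 CPM, -3.41 ± 0.18 SE), and 1 rose, tel2 (0.64 ± 0.16 SE). Of the 10 Hsp70 partners 6 fell, among them pss1, an Hsp110-type exchange factor (2410 to 326 CPM, -2.88 ± 0.20 SE), and psi1, an Hsp40, rose by 0.79 ± 0.18 SE. Of the 8 mitochondrial chaperones 6 fell, with hsp10, the partner of the mitochondrial chaperonin, lowest at -2.47 ± 0.16 SE, and isa1, an iron-sulfur assembly factor, rose by 0.83 ± 0.19 SE. In the prefoldin and nascent chain group, 5 of 8 fell, btf3 by 2.88 on the log2 scale, and of 10 chaperones of the endoplasmic reticulum 6 fell, bip1, the Hsp70 of that compartment, by 1.66.

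The exception was the Hsp31 and DJ-1 family, of which 4 of 6 genes rose in the first hour. The gene hsp3101 had 12.6 and 16.8 CPM in wt at 0 h and 356 and 428 CPM at 1 h, a difference of 4.74 ± 0.39 SE. In the same step sdj1 rose by 2.52 ± 0.16 SE and hsp3102 by 2.42 ± 0.53 SE. At 24 h hsp3101 was at 53.6 and 56.3 CPM in wt, still above 0 h. The last of the 4 is hsp3105, which had 1 read in each wt library of 0 h and 37 and 11 reads at 1 h. In clr4D-labelled cells at 1 h, 7 of the 62 listed genes were called higher and 38 lower, with a median of -0.79, where 26.4% and 25.8% of all genes were.

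**Figure D4:**
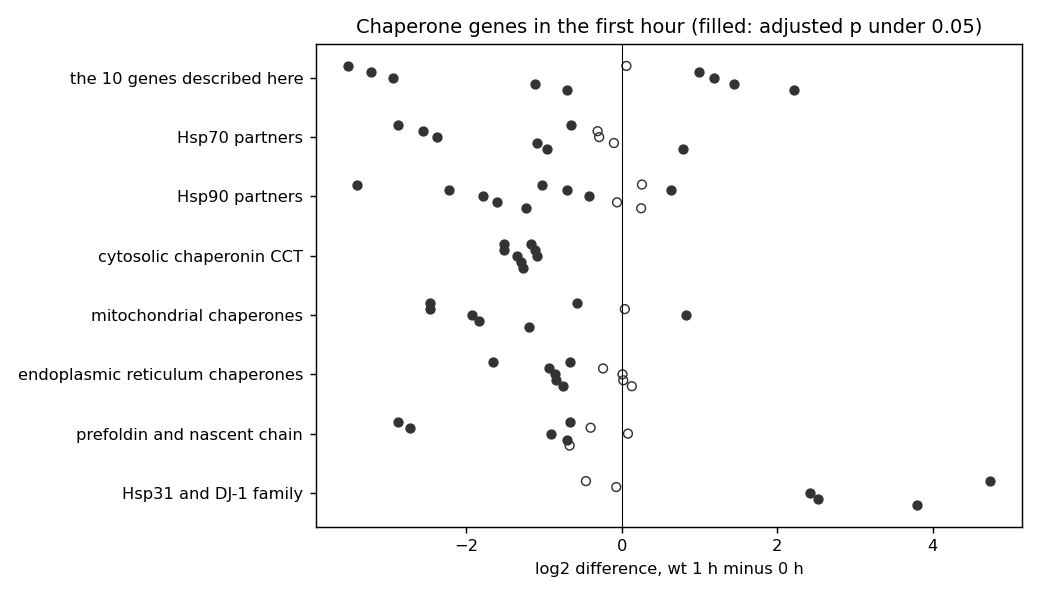
Log2 difference from 0 h to 1 h in wt for each of the 10 genes and for the 62 listed chaperone genes by group, where filled points have an adjusted p under 0.05 and the vertical spread within a row has no meaning. All 8 CCT genes lie between -1.51 and -1.09, and 4 of 6 Hsp31 and DJ-1 genes lie above 2.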

How the data were processed

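The authors deposited counts of reads per annotated feature for each of 24 libraries, aligned with TopHat2 2.0.8 to ASM294v2 and counted with HTSeq 0.6.1, per the submitters' processing notes. Neither the annotation release nor the strand setting is given in the sources used here. Features of 1 gene were summed (6878 to 6877), and 6705 genes were matched by systematic name to the RefSeq annotation of ASM294v3, which gave names, overlaps and promoters. The 5 totals for reads without a gene stayed out of all tests: reads outside features made up 2.09% to 5.14% of each library and ambiguous reads 0.95% to 1.41%.

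Counts were fitted in edgeR 4.0.16 (R 4.3.3) with filterByExpr, TMM factors of 0.695 to 1.263, 12 group means and robust quasi-likelihood dispersion. Adjustment was by Benjamini-Hochberg over 5664 genes. The 33 comparisons are the strains at each time and on their mean, time against 0 h, consecutive times, differences between strains in change, and F tests over all times. Precision is limited by 2 libraries per group. Simulated counts with known changes were tested first. Replicates correlated at 0.9595 to 0.9905 and none were duplicates. Alternatives were other scalings (RLE, upper quartile, library totals), no filter, non-robust dispersion, a replicate block, groups alone, limma-voom (limma 3.58.1), DESeq2 1.42.0 and leaving out libraries. Replicate numbers were not taken to pair samples.

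The genes and lists were chosen with earlier results of these data known. Named genes are the 10 genes, clr4, from each list group the largest called rise and fall with at least 10 CPM in wt at 1 h and 24 h against 0 h and between the strains at 0 h and 10 h, and the 5 genes most like hsp16. The genes sdj1, hsp3102 and hsp3105 at 1 h, and sec63, bip1 and gpt1 at 10 h, were named in addition, after their values were seen. The symbol ssp1, which names a kinase in this yeast, was dropped from the list after the values were known.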

Additional observations from a re-analysis of the deposited data

Results flagged for a closer look

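The course of ssa1 over time differed between the strains, with an adjusted p of 0.00549 in edgeR's quasi-likelihood F test. Its strain difference was 1.32 at 0 h, -0.09 at 4 h and 1.23 at 10 h. The course kept its call in all 33 alternative settings tried.

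The change from 0 h to 4 h was smaller for ssa1 in clr4D-labelled cells by 1.41 (log2 -1.41 ± 0.29 SE, adjusted p = 0.00914), and for hsp104 by 1.04 (log2 -1.04 ± 0.27 SE, adjusted p = 0.0461), both from edgeR's quasi-likelihood test of the difference. The ssa1 value kept its call in 14 of 18 settings, and the hsp104 value in 8 of 18. The ssa1 wt libraries of 4 h had 599.6 and 1041 CPM, and the hsp104 wt libraries 827 and 1129 CPM. Without wt 4 h replicate 2 the hsp104 value was -0.80 (adjusted p = 0.115).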

How the results depend on the processing

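Scaling by library totals alone moved the median of all genes by up to 0.606 on the log2 scale (clr4D-labelled cells, 10 h against 0 h), where the split of all calls went from 1550 higher and 1545 lower to 2766 and 736. Of the differences called under either scaling it turned 2, both in clr4D-labelled cells: hsp20 at 10 h against 0 h to 0.02 and hsp16 at 24 h against 0 h from -0.01 to 0.6 (adjusted p = 0.0478). Uncalled differences also changed sign, such as hsp20 at 24 h (-0.27 to 0.32), and all of these moved with the shift of all genes. It also gave 2 members called between the strains at 4 h, 5 on the mean of the times, 7 in the step from 2 h to 4 h in clr4D-labelled cells, and 1 each for the strain difference in change to 4 h and to 24 h. RLE factors gave 1 for the change to 4 h. Fitting only the groups compared gave 4 members between the strains at 10 h and 1 at 24 h, 0, 2 and 3 in the wt steps to 4, 10 and 24 h, 7 in the clr4D-labelled step to 4 h, and 0 for the change to 4 h. With limma-voom there were 3 between the strains at 4 h, 2 in the wt step to 24 h, 4 in the clr4D-labelled step to 24 h and 3 for the course. DESeq2 gave 2, 2, 1 and 3 for the strains at 4 h, the wt step to 24 h, the change to 24 h and the course. Without wt 0 h and wt 4 h replicate 2 together there was 1 each for the wt step to 4 h and the changes to 2 h and 4 h. With the replicate number as a block 2 members were called for the course, and no other count moved by over 1.5 times. Deviations of same-numbered libraries correlated at -0.08 to 0.33 over 66 pairs of groups, and at -0.04 to 0.22 between the strains, 3 of 6 over 0.1, so a pairing by number was not taken as given.

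Leaving out single libraries gave 0 to 2 members called between the strains at 0 h, 1 to 2 at 1 h and at 24 h, 1 to 4 at 4 h, 2 to 4 on the mean, 0 to 3 for the change to 4 h and 1 to 5 for the course. For the wt steps the ranges were 1 to 4 to 2 h, 1 to 5 to 4 h, 5 to 8 to 10 h and 0 to 1 to 24 h, and for the clr4D-labelled steps 1 to 2, 0 to 2, 3 and 0 to 1. The cause was not tested. The heat shock element was in 16.7% of promoters over 250 bases alone, and the form with 3 units in 0.411% there and 0.47% over 300 bases, with 2 members in both. Across the settings 459 counts of called members were unmoved and 61 moved. Results for single members were counted as the same 4958 times, which for a test means an unchanged call and not an unchanged sign. Calls of single members were lost 158 times and gained 98 times, and 2 differences called under either setting changed sign.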

Other observations

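At 24 h without nitrogen in wt, 5 of the 62 listed chaperone genes outside the 10 were called higher and 39 lower than at 0 h, where 23.7% and 28.6% of all genes were. Under library totals alone 11 were higher and 24 lower, without the share of all genes under that scaling beside them. The Hsp70-Hsp90 adaptor gene sti1 was at 216 CPM against 1220 CPM at 0 h (-2.49 ± 0.18 SE), bip1 at 850 against 2760 CPM (-1.70 ± 0.19 SE), hsp10 at 101 against 474 CPM (-2.23 ± 0.15 SE) and egd2, of the nascent chain complex, at 232 against 732 CPM (-1.66 ± 0.18 SE). All 8 CCT genes were again lower, cct3 by 1.23 on the log2 scale. The Hsp40 gene psi1, higher at 1 h, was lower at 24 h (-1.91 ± 0.19 SE). The gene hsp3105 had 1 read in each wt library of 0 h and 123 and 112 reads at 24 h, while hsp3104 fell from 23.9 to 12.7 CPM. Rises were found for git7 (0.53 ± 0.19 SE) and isa1 (0.73 ± 0.18 SE).

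Between the strains at 10 h, 6 of the 62 were called higher in clr4D-labelled cells and 6 lower, with 8 and 3 under library totals alone. At 4 h the counts were 3 and 6, and 10 and 0 under library totals alone. Under TMM 12% of all genes were called higher and 12% lower at 10 h, and 5.19% and 9.82% at 4 h. The TMM counts therefore do not stand apart from all genes. Library totals alone shift the calls of all genes as well. Without the shares under that scaling, its counts are not read as a result about chaperones. The chaperones of the endoplasmic reticulum called higher at 10 h were 4 of 10, pdi3 at 831 against 468 CPM (0.83 ± 0.15 SE), sec63 (0.80 ± 0.14 SE), bip1 (0.63 ± 0.18 SE) and gpt1 (0.62 ± 0.14 SE). The Hsp90 partner wis2 was also higher (0.68 ± 0.17 SE). The genes egd2 (-1.19 ± 0.19 SE), tim44 (-0.48 ± 0.16 SE), rvb2 (-0.46 ± 0.13 SE) and hsp3105 (7.18 against 23.3 CPM) were lower. The sums of the meiotic and sporulating genes differed in the same libraries, 6962 and 14760 against 62.4 and 63.03 CPM in wt, and their part in these differences was not tested.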
